A study of Mus musculus with 8 samples.

Results

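Libraries of mouse vascular smooth muscle cells, which give the vessel wall its tone and were grown here as primary cultures, were compared by replicate number. Replicate 1 of GFP and of THOC5 cells in growth medium was set against replicate 2 of the same 2 kinds of cell. The libraries so chosen are 4 of the 8 RNA-seq libraries, and 22575 of the 27249 genes in the table were tested. The GFP cells overexpressed green fluorescent protein as the control and are labelled wild type. The THOC5 cells overexpressed THOC5, which belongs to the THO complex, an mRNA export assembly loaded during transcription. The other 4 libraries held the same 2 kinds of cell in osteogenic medium, which the series design gives as phosphate for 6 days. The labels leave out the vector, the time in growth medium and the strain, sex and age of the mice. Nothing in the labels says that a replicate number marks a shared culture, day or batch, or that replicates were separate cultures, so the p-values below measure the spread between these libraries only. The table columns of THOC5 replicates 1 and 2 in growth medium were matched through the description field alone, and the first parts of their names end in 2 and 3.

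A total of 82 of the 22575 genes tested (0.363%) differed between the replicate numbers in the same direction in both kinds of cell. The 30 higher in replicate 1 (0.133%) included 25 genes of the amino acid stress lists. Among these were the transcription factor gene Atf4 itself, targets such as Chac1, Trib3 and Asns, 3 of 24 amino acid transporters and 6 tRNA synthetases from a list of 23. Mthfd1l and Ndrg1, members of the same lists, were higher in replicate 2. The 52 higher in replicate 2 (0.23%) included 18 genes of glycolysis or induced by hypoxia-inducible factor (HIF). They also included 5 of 31 sterol and fatty acid genes and 3 of 27 replication genes. The lists were chosen with earlier results of these data known. Their counts, and the list medians below, are therefore a description and no separate support. The 4 growth libraries fitted alone called 0 genes. Among called genes with a mean of at least 50 normalized counts, the largest difference was that of Chac1, 5.30-fold. Among uncalled genes with such a mean the log2 difference went as low as -3.02.

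The amino acid response is one arm of the integrated stress response. Kinases that sense uncharged tRNA, unfolded protein, viral RNA or heme shortage phosphorylate the translation factor eIF2, which lowers protein synthesis in general but raises translation of ATF4. ATF4 pairs with C/EBP proteins on composite DNA sites and raises genes that import amino acids, make serine, asparagine and proline, and charge tRNAs. HIF is made continuously and destroyed while oxygen is plentiful, because prolyl hydroxylases mark it for degradation. When oxygen falls it binds short sites with the core ACGTG or GCGTG and raises glucose import, glycolysis and the hydroxylases themselves.

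The genes that moved together include some whose promoters hold such letters, and these are shown with the matches in capitals. Of the 25 genes of the amino acid stress lists that were higher in replicate 1, 20 had a promoter in the RefSeq table (GRCm38.p6), in 25 windows of 250 bases before the start site. The C/EBP-ATF letters TGATGNAAN, searched on both strands, were in 7 of the 25 windows (28.0%), against 3.44% of all 32851 windows. Sequences run 5′ to 3′ on the strand of the gene, so that a match on the other strand reads as the reverse complement, and 6 of the 7 are shown, those of Asns and Tars kept short because the stretch around the match overlaps an annotated exon.
Atf3, chr1:191183406-191183474, minus strand: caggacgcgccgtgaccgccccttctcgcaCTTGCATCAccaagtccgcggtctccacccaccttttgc
Chac1, chr2:119351018-119351086, plus strand: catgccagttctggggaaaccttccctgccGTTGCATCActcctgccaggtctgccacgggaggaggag
Herpud1, chr8:94386286-94386354, plus strand: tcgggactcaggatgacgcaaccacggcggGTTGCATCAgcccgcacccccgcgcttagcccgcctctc
Gars, chr6:55037940-55038000, plus strand: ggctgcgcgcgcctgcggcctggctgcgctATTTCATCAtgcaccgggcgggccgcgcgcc
Asns, chr6:7693214-7693242, minus strand: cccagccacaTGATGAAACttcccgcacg
Tars, chr15:11399659-11399684, minus strand: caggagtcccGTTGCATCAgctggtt

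Of the 18 genes of the HIF and glycolysis lists that were higher in replicate 2, 15 had a promoter in the table, in 17 windows. ACGTG was in 8 of the 17 (47.1%) against 16.6% of all windows, and GCGTG in 10 (58.8%) against 28.2%, on either strand. The cores can overlap, and 1 window can hold both. These shares, like that of TGATGNAAN above, describe letters in a window and not bound sites. The lists were drawn up from known targets and pathways, and their uncalled members were not searched. A share above that of all windows therefore says nothing about the replicate difference. One ACGTG match is shown for each of 4 genes, in a stretch that lies outside annotated exons.
Ldha, chr7:46845727-46845791, plus strand: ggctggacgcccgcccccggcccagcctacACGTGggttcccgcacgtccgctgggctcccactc
Bnip3, chr7:138909579-138909643, minus strand: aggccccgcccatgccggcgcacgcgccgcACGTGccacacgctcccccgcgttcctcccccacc
Egln3, chr12:54204069-54204124, minus strand: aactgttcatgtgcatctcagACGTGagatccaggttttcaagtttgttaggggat
Fam162a, chr16:36071608-36071672, minus strand: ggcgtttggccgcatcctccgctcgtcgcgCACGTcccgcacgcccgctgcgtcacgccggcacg

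Recovered reads numbered 8244941 and 7058681 in GFP replicates 1 and 2 in growth medium and 10222637 and 10450335 in THOC5 replicates 1 and 2, so that replicate 1 was the deeper library in GFP cells and the shallower in THOC5 cells. Reads from mitochondrially encoded genes were 2.22% to 2.36% of the total in the 4 libraries. The ribosomal RNA gene CT010467.1 took 3.66% and 1.54% of reads in GFP replicates 1 and 2, and 4.59% and 6.27% in THOC5 replicates 1 and 2, again in opposite directions in the 2 kinds of cell. A count of 0 allows up to 3 reads, or 2.87 to 3.99 normalized counts in these libraries, which covers counting error only. Thoc5 was read at 458 and 471 normalized counts in GFP replicates 1 and 2 and at 2155 and 1406 in THOC5 replicates 1 and 2, which goes with the labels. The smooth muscle genes Acta2, Tagln, Cnn1 and Lmod1 were present at 424 normalized counts or more in each of the 4, whereas Myh11 stood at 109 to 158 and Des at 7.72 to 17.2.

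More of the variation in growth medium lay between replicate numbers than between the 2 kinds of cell. Each share below is 1 contrast of the 4 libraries, so spread between single libraries enters all of them. The replicate share also rests on the matching of replicate numbers described above. Among 10629 genes with a mean of at least 50 normalized counts over the 4 growth libraries, 50.3% of the sum of squares of log2(normalized count + 1) lay between replicate numbers, 28.5% between THOC5 and GFP cells, and 21.1% in the part where the replicate difference was unlike in the 2 kinds of cell. In osteogenic medium the same shares were 5.59%, 88.7% and 5.66%. The replicate differences of GFP and THOC5 cells in growth medium correlated across these genes (Pearson's r = 0.407, Spearman's rho = 0.311, n = 10629 genes, which are not independent). The 2 pairs share no library, but all 4 libraries were scaled together. The correlation and the shares above come from the same differences, so the one is no separate support for the other. In osteogenic medium the 2 pairs gave r = -0.00618 and rho = -0.0296.

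Genes picked in one kind of cell were then read in the other, again from the same differences. Of the 172 genes at least 1.5-fold higher in replicate 2 of GFP cells, 152 (88.4%) were higher in replicate 2 of THOC5 cells as well, with a median log2 difference of -0.39. Of the 122 genes at least 1.5-fold higher in replicate 1 of GFP cells, 93 (76.2%) were higher in replicate 1 of THOC5 cells, with a median of 0.26. Picked in THOC5 cells, 114 of 127 (89.8%) and 88 of 111 (79.3%) were on the same side in GFP cells. The osteogenic pairs gave 94 of 144 (65.3%) and 27 of 52 (51.9%) when picked in GFP cells, and 11 of 27 (40.7%) and 19 of 38 (50.0%) when picked in THOC5 cells. Past 1.5-fold in either direction were 294 genes (2.77%) in GFP and 238 (2.24%) in THOC5 growth pairs, and 196 (1.84%) and 65 (0.612%) in the osteogenic pairs.

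**Figure D1:**
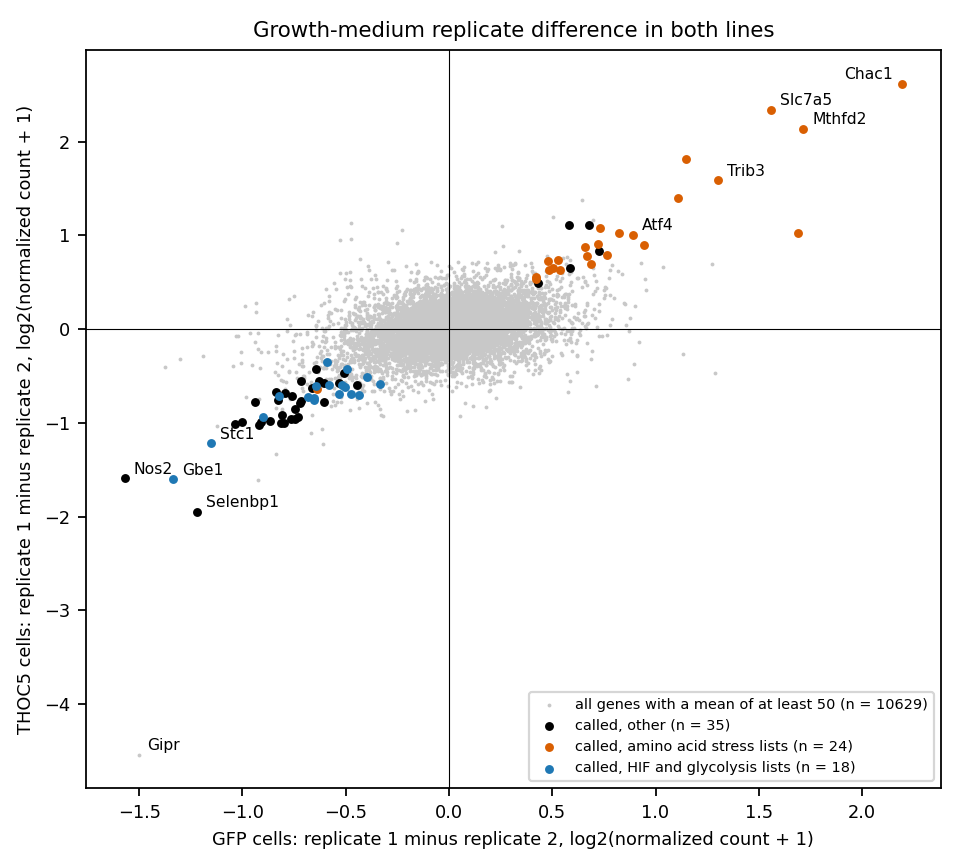
Replicate 1 minus replicate 2 in growth medium, as a difference of log2(normalized count + 1), in GFP cells (horizontal axis) and THOC5 cells (vertical axis) for the 10629 genes with a mean of at least 50. Each point is 1 gene, and colored points are the 77 genes that passed the test. Amino acid stress genes (orange) lie at the upper right, apart from Mthfd1l at the lower left, where HIF and glycolysis genes (blue) also lie. Gipr, the lowest grey point, did not pass (adjusted p = 0.116).

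Across all genes, limma called 82 of 22575 at an adjusted p under 0.05, which is 0.363%. Of these, 30 (0.133%) were higher in replicate 1 and 52 (0.23%) in replicate 2. At an unadjusted p under 0.05 there were 2378. Among genes with a mean of at least 50 it called 77 (0.724%), of which 28 (0.263%) were higher in replicate 1 and 49 (0.461%) in replicate 2. Both libraries of one replicate number lay beyond both of the other for all 82, and likewise for 19.9% of tested genes with replicate 1 above and 17.9% with replicate 1 below. The spread came from all 8 libraries. The 4 growth libraries alone left 1 residual degree of freedom and called 0 genes (2086 at an unadjusted p under 0.05). Testing every gene with any value above 0 called 0 as well (2708 at an unadjusted p under 0.05), and leaving out any 1 of the 4 growth libraries, which leaves the replicate contrast to 1 kind of cell, also called 0. Without THOC5 osteogenic replicate 1 or replicate 2 the count was 20. edgeR on the recovered reads called 207, which included all 82, and DESeq2 called 122, which included 77 of them. All 82 kept their direction in each of these fits. This was largely fixed beforehand, since most of these fits leave the growth difference unchanged or read it in 1 kind of cell.

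Regulators of the stress response come first, and 4 of 17 were called, all of them higher in replicate 1. Levels here and below are normalized counts, with the GFP library given before the THOC5 library, and fold changes are on the log2(normalized count + 1) scale with the SE over all 8 libraries. Positions are those of the GENCODE annotation on GRCm38, which is the mm10 of the submitters' processing notes. Atf4 (chromosome 15, 80255184 to 80257541) encodes the transcription factor ATF4. It was at 2827 and 2862 normalized counts in replicate 1 of GFP and THOC5 cells and at 1522 and 1424 in replicate 2. Both replicate 1 libraries lay above both replicate 2 libraries, 1.93-fold on average (log2 0.95 ± 0.11 SE, limma adjusted p = 0.00713). Trib3 (chromosome 2, 152337422 to 152344032), a pseudokinase that feeds back on ATF4, was at 375 and 358 in replicate 1 and at 152 and 118 in replicate 2, and the groups did not overlap (2.72-fold, log2 1.45 ± 0.14, adjusted p = 0.00348). Ddit3, which encodes the stress factor CHOP, was at 754 and 712 in replicate 1 and at 477 and 386 in replicate 2 (1.71-fold, log2 0.77 ± 0.12, adjusted p = 0.0213). Atf3 (chromosome 1, 191170296 to 191218039), a further factor of the family, was lower in level, at 64.1 and 63.7 in replicate 1 and at 22.6 and 21.97 in replicate 2 (2.79-fold, log2 1.48 ± 0.22, adjusted p = 0.019). The median over the 17 was a log2 difference of 0.41, against 0.0026 over all genes tested, and 13 were higher in replicate 1 in both kinds of cell, as were 27.2% of all genes tested and 32.5% of those with a mean of at least 50.

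Other regulators did not pass in limma, although edgeR called Atf5, Cebpg and Ppp1r15b as well. Atf5 stood at a log2 difference of 0.58 (adjusted p = 0.0853), Cebpg, a partner of ATF4, at 0.54 (adjusted p = 0.085) and Ppp1r15a, the subunit that directs dephosphorylation of eIF2, at 0.44 (adjusted p = 0.301). The mRNAs of the 4 eIF2 kinases were called by neither limma nor edgeR: Eif2ak4, the sensor of uncharged tRNA, was at 403 and 398 normalized counts in replicate 1 of GFP and THOC5 cells and at 420.1 and 394 in replicate 2 (log2 -0.02), and Eif2ak3, the sensor of unfolded protein, was at 254 and 305 in replicate 1 and at 338 and 341 in replicate 2 (log2 -0.28, adjusted p = 0.414).

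Among ATF4 targets, 10 of 27 were called higher in replicate 1 and 1 was called lower, with a median of 0.49. Chac1 (chromosome 2, 119351229 to 119354381), which degrades glutathione, was at 368 and 363 normalized counts in replicate 1 of GFP and THOC5 cells and at 79.8 and 58.3 in replicate 2. No library of one replicate number reached a library of the other. The difference was the highest toward replicate 1 among genes with a mean of at least 50, 5.30-fold on average (log2 2.41 ± 0.23 SE, limma adjusted p = 0.00348). Gdf15, a secreted stress cytokine, was at 191 and 141 in replicate 1 and at 58.5 and 68.8 in replicate 2 (2.56-fold, log2 1.36 ± 0.21, adjusted p = 0.0239). Asns (chromosome 6, 7675169 to 7693254), which makes asparagine, was at 1134 and 1411 in replicate 1 and at 683 and 669 in replicate 2, with both replicate 1 libraries higher, 1.87-fold on average (log2 0.90 ± 0.13 SE, limma adjusted p = 0.0162). Gpt2, an alanine aminotransferase, was 1.89-fold higher in replicate 1, Eif4ebp1, an inhibitor of cap-dependent translation, 1.71-fold, Herpud1 1.52-fold, Sesn2, an inhibitor of mTORC1, 1.49-fold, and the tRNA exporter Xpot 1.41-fold. The 1 called lower was Ndrg1, which is also a HIF target and is described with those. Ddit4, on both lists too, did not pass, being at 634 and 624 in replicate 1 and at 647 and 645 in replicate 2 (log2 -0.04). Fgf21, at 0 to 10.6 normalized counts, had a log2 difference of 2.66 (adjusted p = 0.121).

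Of 23 enzymes of serine, one-carbon and proline metabolism, 4 were called higher in replicate 1 and 1 lower, and the median was 0.13. Mthfd2 (chromosome 6, 83305691 to 83325908), the mitochondrial one-carbon dehydrogenase, was at 499.9 and 604 normalized counts in replicate 1 of GFP and THOC5 cells and at 152 and 137 in replicate 2. The replicate 1 libraries were both above the replicate 2 libraries, 3.80-fold on average (log2 1.93 ± 0.13 SE, limma adjusted p = 4.73e-04), which was the smallest adjusted p of the comparison. Psat1 (chromosome 19, 15904678 to 15947337), the aminotransferase of serine synthesis, was at 816 and 829 in replicate 1 and at 494 and 442 in replicate 2, with no overlap (1.76-fold, log2 0.81 ± 0.10, adjusted p = 0.0112). Cth, which makes cysteine by transsulfuration, was higher in replicate 1 at a low level, at 38.5 and 51.2 in replicate 1 and at 11.96 and 7.64 in replicate 2 (4.29-fold, log2 2.10 ± 0.30, adjusted p = 0.0162), and Aldh18a1, the first enzyme of proline synthesis, was 1.39-fold higher. Mthfd1l (chromosome 10, 3973118 to 4167081), which makes formate in mitochondria in the step after MTHFD2, was at 776 and 742 in replicate 1 and at 1209.7 and 1157 in replicate 2. It went the other way in both kinds of cell, 1.56-fold on average (log2 -0.64 ± 0.07 SE, limma adjusted p = 0.00589). Phgdh, Psph and Shmt2, also of serine and glycine synthesis, had log2 differences of 0.66 (adjusted p = 0.101), 0.93 (adjusted p = 0.0533) and 0.52 (adjusted p = 0.165) in limma, and edgeR called all 3.

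Of 24 amino acid transporters, 3 were called, all higher in replicate 1, and the median of the list was 0.01. Slc7a5 (chromosome 8, 121881150 to 121907694), the large neutral amino acid carrier LAT1, was at 907 and 1034 normalized counts in replicate 1 of GFP and THOC5 cells and at 307 and 203 in replicate 2. Both replicate 1 libraries were far above both replicate 2 libraries, 3.86-fold on average (log2 1.95 ± 0.16 SE, limma adjusted p = 0.00168). Slc7a1 (chromosome 5, 148327410 to 148399904), the arginine and lysine carrier, was at 1071 and 1122 in replicate 1 and at 496 and 424 in replicate 2, again without overlap (2.39-fold, log2 1.26 ± 0.10, adjusted p = 0.00158). Slc6a9 (chromosome 4, 117834506 to 117875198), a glycine transporter, was at 139.8 and 171 in replicate 1 and at 62.5 and 47.8 in replicate 2 (2.80-fold, log2 1.48 ± 0.20, adjusted p = 0.0146). Slc3a2, the partner chain of LAT1, had a log2 difference of 0.54 (adjusted p = 0.0551) and the cystine importer Slc7a11 one of 1.01 (adjusted p = 0.0583) in limma, and edgeR called both. Slc38a2, a sodium-coupled carrier of small neutral amino acids, was at 11291 and 11449 in replicate 1 and at 11586 and 11765 in replicate 2 (log2 -0.04).

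Of 23 cytosolic tRNA synthetases and their scaffold genes, 6 were called higher in replicate 1 and 0 lower, with a median of 0.29. Aars (chromosome 8, 111033144 to 111057664), for alanine, was at 2543 and 2728 normalized counts in replicate 1 of GFP and THOC5 cells and at 1436 and 1341 in replicate 2, with both replicate 1 libraries higher, 1.90-fold on average (log2 0.92 ± 0.09 SE, limma adjusted p = 0.00369). Cars, Yars, Gars, Tars and Nars, for cysteine, tyrosine, glycine, threonine and asparagine, were called as well, with log2 differences of 0.72, 0.69, 0.63, 0.58 and 0.56. Those for aspartate, lysine and glutamine did not pass, with Dars at 1104 and 1103 in replicate 1 and at 1121 and 1107 in replicate 2 (log2 -0.01), Kars at log2 -0.03 and Qars at log2 -0.07. By edgeR 9 of the 23 were called, all higher in replicate 1, and by DESeq2 8. Of 25 ER chaperone and unfolded protein response genes, 0 were called in either direction by limma (lowest adjusted p = 0.222, 12 genes at an unadjusted p under 0.05), 0 by edgeR and 1 by DESeq2, and 17 were lower in replicate 1 in both kinds of cell, with a median of -0.18. The share so placed was 24.6% over all genes tested and 27.6% over those with a mean of at least 50. Hspa5, the chaperone BiP, was at 5408 and 5752 in replicate 1 and at 6185 and 6615 in replicate 2 (log2 -0.20, adjusted p = 0.434). Without THOC5 osteogenic replicate 1 or replicate 2 the counts higher in replicate 1 were 2 for the regulators, 3 for the ATF4 targets, 1 for the enzymes, 2 for the transporters and 1 for the synthetases.

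**Figure D2:**
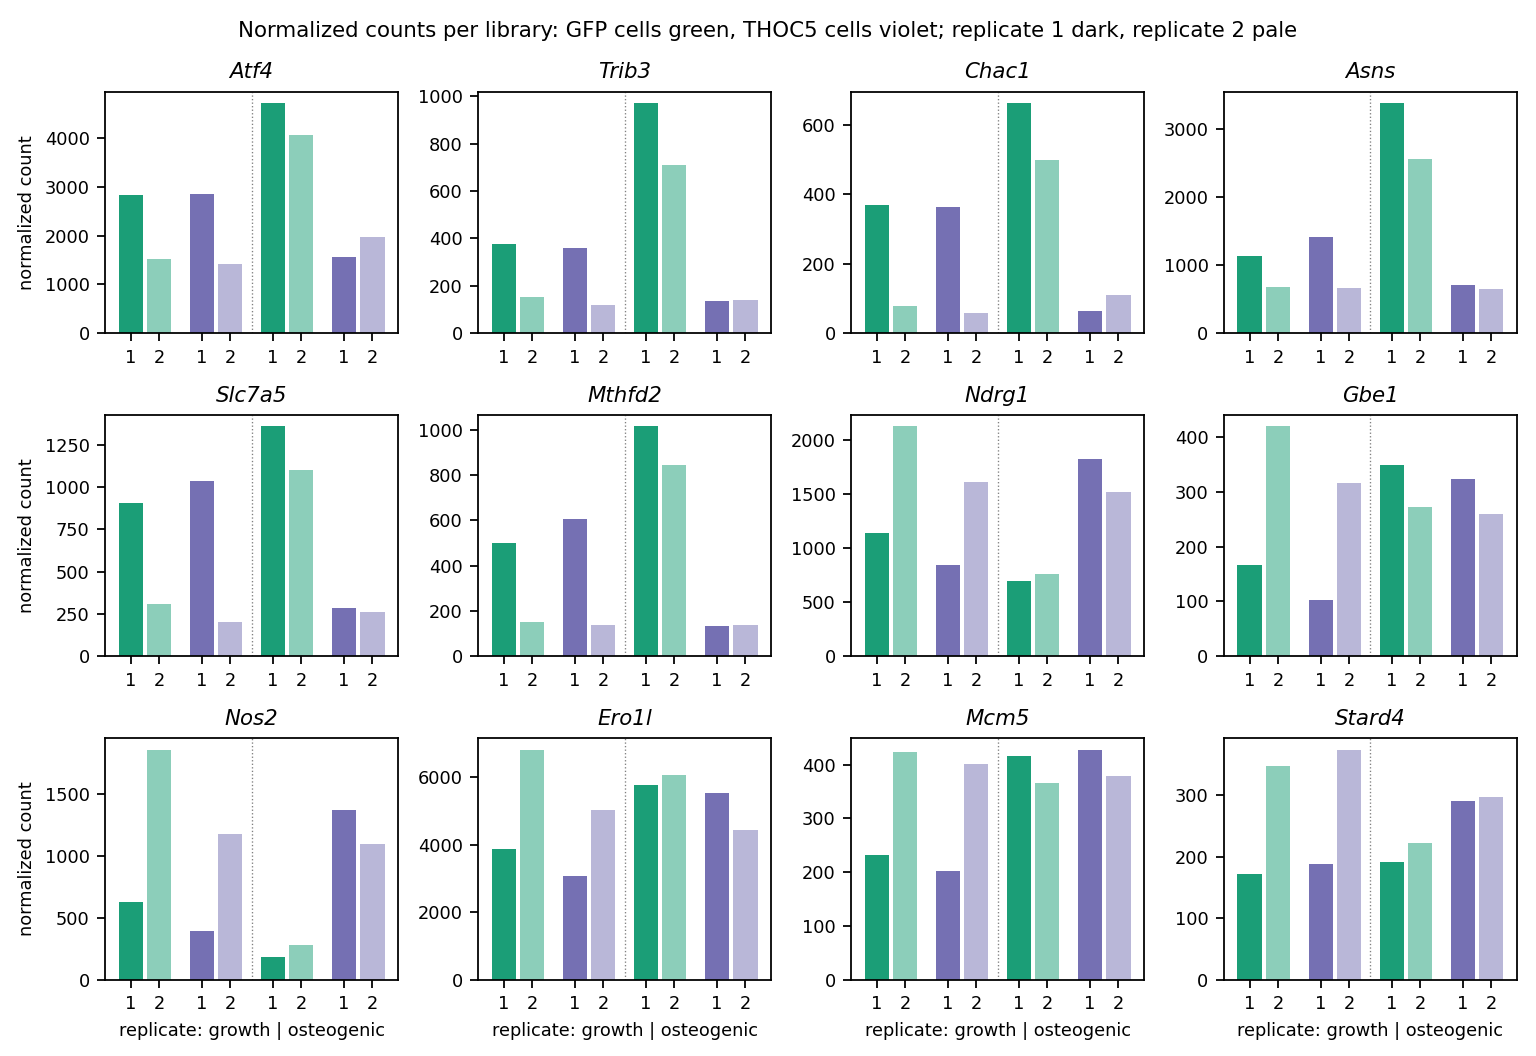
Normalized count of 12 genes in each of the 8 libraries, 1 bar per library with no error bar, growth medium left of the dotted line and osteogenic medium right of it. In growth medium the dark replicate 1 bars of Atf4, Trib3, Chac1, Asns, Slc7a5 and Mthfd2 stand above the pale replicate 2 bars in both GFP (green) and THOC5 cells (violet), and those of Ndrg1, Gbe1, Nos2, Ero1l, Mcm5 and Stard4 stand below them.

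HIF targets went the other way. Of 41 tested outside glycolysis, 10 were called higher in replicate 2 and 0 in replicate 1, with a median of -0.41, and 30 of 41 were higher in replicate 2 in both kinds of cell. Of all genes tested 24.6% were so, and of those with a mean of at least 50, 27.6%. Gbe1 (chromosome 16, 70313949 to 70569716), the glycogen branching enzyme, was at 165 and 103 normalized counts in replicate 1 of GFP and THOC5 cells and at 419 and 316 in replicate 2. The replicate 2 libraries were both above the replicate 1 libraries, 2.77-fold on average (log2 -1.47 ± 0.15 SE, limma adjusted p = 0.00348). Stc1 (chromosome 14, 69029238 to 69041804), a secreted glycoprotein, was at 136 and 96.5 in replicate 1 and at 304 and 225 in replicate 2 (2.27-fold, log2 -1.18 ± 0.19, adjusted p = 0.0281). Ndrg1 (chromosome 15, 66929318 to 66969640) was at 1137 and 843 in replicate 1 and at 2124 and 1611 in replicate 2, with no overlap, 1.89-fold on average (log2 -0.92 ± 0.10 SE, limma adjusted p = 0.00413). Ero1l (chromosome 14, 45283087 to 45318771), the ER oxidase that serves disulfide formation, was at 3862 and 3072 in replicate 1 and at 6827 and 5039 in replicate 2 (1.70-fold, log2 -0.77 ± 0.10, adjusted p = 0.014). Bnip3 (chromosome 7, 138890836 to 138909519), a mitophagy receptor, was at 663 and 556 in replicate 1 and at 1065 and 917 in replicate 2 (1.63-fold, log2 -0.70 ± 0.10, adjusted p = 0.0146).

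The oxygen sensors that HIF itself induces were among them. Egln1 (chromosome 8, 124908587 to 124949324), the prolyl hydroxylase PHD2, was at 1770.2 and 1533 normalized counts in replicate 1 of GFP and THOC5 cells and at 2789 and 2545 in replicate 2, and both replicate 2 libraries were higher (1.62-fold, log2 -0.69 ± 0.07, adjusted p = 0.00413). Egln3 (chromosome 12, 54178981 to 54203860), PHD3, was at 988 and 869 in replicate 1 and at 1479.5 and 1310.3 in replicate 2 (1.502-fold, log2 -0.59 ± 0.07, adjusted p = 0.00975). P4ha2, a collagen prolyl hydroxylase, was 1.498-fold higher in replicate 2, Gys1, glycogen synthase, 1.54-fold, and the mitochondrial protein gene Fam162a 1.37-fold. The mRNA of HIF-1 alpha, which is regulated mainly as protein, did not pass: Hif1a was at 9803 and 10444 in replicate 1 and at 8878 and 8196 in replicate 2 (log2 0.25, adjusted p = 0.479). Several known HIF targets did not pass in limma either, while edgeR called 16 of the 41, all higher in replicate 2, and DESeq2 15. Vegfa, the angiogenic growth factor, was at 7667 and 7141 in replicate 1 and at 7979.8 and 7167 in replicate 2 (log2 -0.03, adjusted p = 0.938), and Angptl4 had a log2 difference of 0.09 (adjusted p = 0.81). Car9, at 15.95 to 22.1 normalized counts, had one of 0.09 (adjusted p = 0.969). Pdk1, the kinase that closes pyruvate entry into mitochondria, was at 1017 and 981 in replicate 1 and at 1522 and 1424 in replicate 2 (log2 -0.56, limma adjusted p = 0.0893), and edgeR called it.

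Glycolysis followed, with calls at the hexokinase, phosphofructokinase, triose phosphate and lactate steps. Of 23 genes of glycolysis and lactate export, 8 were called higher in replicate 2 and 0 in replicate 1, the median was -0.44, and 21 were higher in replicate 2 in both kinds of cell, as were 24.6% of all genes tested. Slc2a1 (chromosome 4, 119108711 to 119137983), the glucose carrier GLUT1, was at 1313 and 1209 normalized counts in replicate 1 of GFP and THOC5 cells and at 1975 and 1540.4 in replicate 2 (1.38-fold, log2 -0.47 ± 0.08, adjusted p = 0.0496). Hk1, hexokinase 1, had a log2 difference of -0.46. Pfkp (chromosome 13, 6579768 to 6648777) and Pfkl, subunits of phosphofructokinase, were both called, and Pfkp was at 755 and 630.4 in replicate 1 and at 1187 and 1065 in replicate 2, with the replicate 2 libraries above, 1.63-fold on average (log2 -0.70 ± 0.09 SE, limma adjusted p = 0.0117). Tpi1 (chromosome 6, 124810586 to 124814296), triose phosphate isomerase, was at 5701 and 5597 in replicate 1 and at 8077 and 8565 in replicate 2 (1.47-fold, log2 -0.56 ± 0.08, adjusted p = 0.0146). Ldha (chromosome 7, 46841475 to 46855627), lactate dehydrogenase A, was at 6556 and 6408 in replicate 1 and at 9392 and 9654 in replicate 2, with no overlap, 1.47-fold on average (log2 -0.55 ± 0.08 SE, limma adjusted p = 0.0146). Gapdh, often taken as a reference gene, was at 5559 and 5307 in replicate 1 and at 7329.8 and 7581 in replicate 2 (1.37-fold, log2 -0.46 ± 0.08, adjusted p = 0.0496), and the lactate exporter Slc16a3 was 1.53-fold higher in replicate 2. Hk2 and Pgk1 did not pass, at -0.25 and -0.26, and Eno2 stood at 0.08. By edgeR 13 of the 23 were called, all higher in replicate 2, and by DESeq2 12. Without THOC5 osteogenic replicate 1 or replicate 2 the count of this list was 0, and that of the other HIF targets 5.

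Of 31 genes of cholesterol and fatty acid synthesis, 5 were called higher in replicate 2, with 0 in the other direction and a median of -0.27, and 24 were higher in replicate 2 in both kinds of cell, as were 24.6% of all genes tested. Stard4, a sterol carrier, was at 172 and 187 normalized counts in replicate 1 of GFP and THOC5 cells and at 347 and 374 in replicate 2, and both replicate 2 libraries were higher, 1.9996-fold on average (log2 -0.9997 ± 0.11 SE, limma adjusted p = 0.00413). Scd2 (chromosome 19, 44293674 to 44306864), a fatty acid desaturase, was at 1331 and 1103 in replicate 1 and at 2229 and 2139 in replicate 2 (1.80-fold, log2 -0.85 ± 0.09, adjusted p = 0.00474). Insig1, the sterol-sensing anchor of SREBP, was 1.45-fold higher in replicate 2 and the elongase Elovl6 1.67-fold. Hmgcs1, an early enzyme of cholesterol synthesis, had a log2 difference of -0.47 (adjusted p = 0.285). Fasn, fatty acid synthase, had one of -0.29 (adjusted p = 0.368).

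The cell cycle lists had few calls and a shared direction. Of 27 genes of the G1/S transition and replication, 3 were called, all higher in replicate 2, and 25 were higher in replicate 2 in both kinds of cell, with a median of -0.32. The share so placed was 24.6% over all genes tested and 27.6% over those with a mean of at least 50. Mcm5 (chromosome 8, 75109569 to 75128439), a subunit of the replicative helicase, was at 232 and 203 normalized counts in replicate 1 of GFP and THOC5 cells and at 424 and 402 in replicate 2, with the replicate 2 libraries above, 1.90-fold on average (log2 -0.93 ± 0.10 SE, limma adjusted p = 0.00567). Uhrf1 (chromosome 17, 56303321 to 56323486), which maintains DNA methylation, was at 339 and 345 in replicate 1 and at 589 and 553 in replicate 2 (1.67-fold, log2 -0.74 ± 0.10, adjusted p = 0.0163), and Rrm2, ribonucleotide reductase, was 1.55-fold higher. All 24 mitosis genes tested were higher in replicate 2 in both kinds of cell, and 1 was called by limma and 10 by edgeR, with a median of -0.46. Kif20a, a kinesin of cytokinesis, was at 681 and 677 in replicate 1 and at 1053 and 992 in replicate 2 (1.51-fold, log2 -0.59 ± 0.08, adjusted p = 0.0142), whereas the proliferation marker Mki67 was at 1277 and 1249 in replicate 1 and at 1849 and 1653 in replicate 2 (log2 -0.47, limma adjusted p = 0.0721; called by edgeR). Ccnd1, which encodes cyclin D1, had a log2 difference of 0.04. Without THOC5 osteogenic replicate 1 or replicate 2, 1 G1/S gene and 2 sterol and fatty acid genes were called. In bulk libraries such as these a smaller share of cycling cells and less cell cycle RNA per cell cannot be told apart, nor can the like for any other group of genes here.

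Among the called genes outside these lists, Nos2 (chromosome 11, 78920787 to 78960254), inducible nitric oxide synthase and a member of the inflammatory list, had one of the largest differences. It was at 627 and 392 normalized counts in replicate 1 of GFP and THOC5 cells and at 1864 and 1181 in replicate 2. Both replicate 2 libraries were above both replicate 1 libraries, 2.99-fold on average (log2 -1.58 ± 0.17 SE, limma adjusted p = 0.00413). It was the only one of 29 inflammatory genes called, and Il6 was at 1759 and 1662 in replicate 1 and at 1478 and 1443 in replicate 2 (log2 0.23, adjusted p = 0.421). Selenbp1 (chromosome 3, 94933056 to 94944758), a methanethiol oxidase, was at 171 and 93.6 in replicate 1 and at 400.1 and 364 in replicate 2 (2.996-fold, log2 -1.58 ± 0.20, adjusted p = 0.00975). Triobp, an actin-binding protein gene, was at 1107 and 858 in replicate 1 and at 1858 and 1552 in replicate 2 (1.74-fold, log2 -0.80 ± 0.07, adjusted p = 0.00263). Apln (chromosome X, 48025146 to 48034853), the peptide hormone apelin, was at 452 and 383 in replicate 1 and at 857 and 779 in replicate 2 (1.96-fold, log2 -0.97 ± 0.13, adjusted p = 0.0117). Some called genes lie outside every list but have a known role beside one, and they were singled out after their values were seen. Epm2a, the glycogen phosphatase laforin, and Pgm1, a phosphoglucomutase, were higher in replicate 2 with log2 differences of -1.02 and -0.52, as were Gbe1 and Gys1 of glycogen synthesis. Pclaf, a PCNA-binding factor, the kinase Melk, the condensin subunit Ncapd2 and the centromeric histone Cenpa were higher in replicate 2 as well, with log2 differences of -0.90, -0.83, -0.59 and -0.48. The remaining called genes with a mean of at least 50 on that side were Arrb1, Cacna1h, Mpp2, Tbl2, Ndrg2, Suv39h1, Spon2, Me2 and the pseudogene H2-T-ps, with log2 differences of -0.90 to -0.55. Atg9b, Kbtbd11 and 2610528A11Rik had means of 32.3 to 41.1 and differences of -1.61 to -2.48. On the replicate 1 side, Bcat1, which transaminates branched-chain amino acids, was 1.85-fold higher and Ptx3, a secreted pentraxin, 1.80-fold, and Cyb5r1, Lhfpl2 and Rin1 had log2 differences of 0.78, 0.62 and 0.46.

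**Figure D3:**
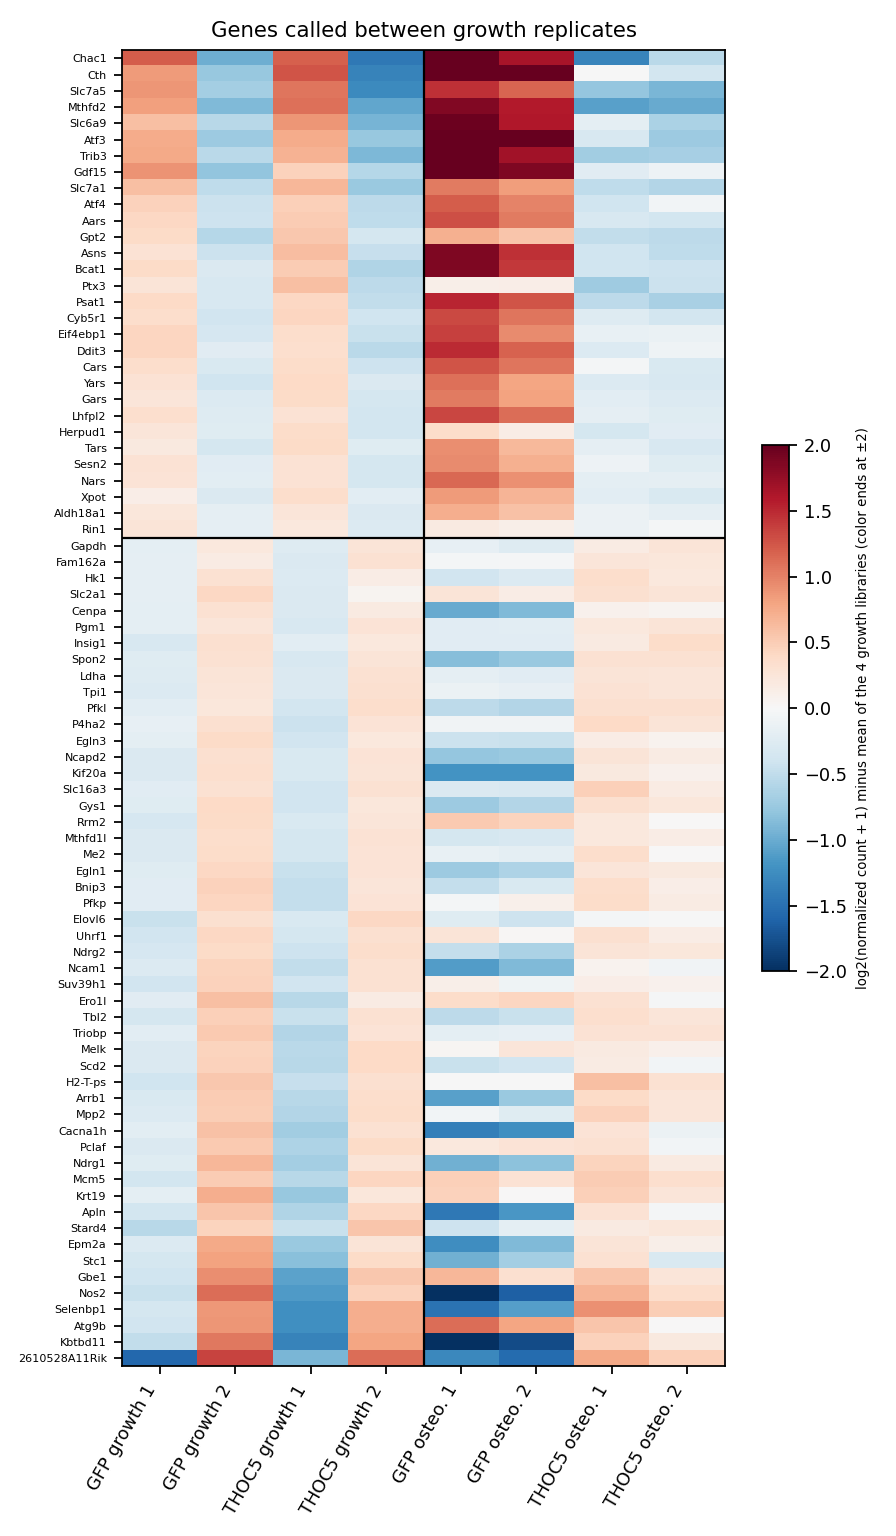
Of the 82 called genes, 81 (rows, ordered by log2 difference) in the 8 libraries (columns), as log2(normalized count + 1) minus the mean of the 4 growth libraries, with color ending at ±2. In the 4 left columns the upper 30 genes are red in both replicate 1 libraries and the lower 51 are blue there. In the right columns the upper genes are red in both GFP osteogenic libraries and near or below the growth mean in both THOC5 osteogenic libraries.

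Lists outside metabolism and the cell cycle held few or no calls. Contractile smooth muscle genes had 0 of 25 called in either direction by limma (lowest adjusted p = 0.272) and a median of 0.12, with Acta2, smooth muscle actin, at 23089 and 25293 normalized counts in replicate 1 of GFP and THOC5 cells and at 19635 and 25005 in replicate 2 (log2 0.13, adjusted p = 0.766) and Myh11, smooth muscle myosin, at 139.8 and 131 in replicate 1 and at 109 and 158 in replicate 2 (log2 0.05, adjusted p = 0.969). The contractile list had 2 genes at an unadjusted p under 0.05, and edgeR and DESeq2 called 0 of it. Of 35 extracellular matrix genes limma called 0 (6 at an unadjusted p under 0.05, with Lox and Loxl2 called higher in replicate 2 by edgeR and 1 gene by DESeq2), and of 17 osteochondrogenic genes 0 (3, and 1 by edgeR and by DESeq2). The 5 metallothionein and zinc genes had 0 calls by limma and 3 by edgeR and by DESeq2, and for edgeR these were Mt1, Mt2 and Slc39a10, higher in replicate 2. YAP and SRF, TGF-beta and NRF2 target lists each had 0 by limma and 1 by edgeR and by DESeq2, from 3 to 5 genes at an unadjusted p under 0.05. For edgeR this was Ccn2 on both the YAP and SRF and the TGF-beta list, and Slc7a11, named above, on the NRF2 list. Of 16 YAP and SRF genes, 13 were higher in replicate 1 in both kinds of cell and 2 lower, with a median of 0.14. Of 30 autophagy and lysosome genes, 19 were higher and 3 lower, with a median of 0.09. Over all genes tested, 27.2% were higher in replicate 1 in both kinds of cell and 24.6% lower. Heat shock, lysosome, oxidative phosphorylation, ribosomal protein, mitochondrially encoded, clock, THO complex and histone genes had 0 by limma, edgeR and DESeq2, with 0 to 5 genes a list at an unadjusted p under 0.05. The immediate early list had 1 call, Atf3, and the p53 list 1, Sesn2, both named above. The interferon list had 0 of 38 called by any of the 3 tools (5 at an unadjusted p under 0.05) and medians of -0.11 in GFP and 0.37 in THOC5 cells, whose difference was not tested as a list. Rsad2, an antiviral enzyme, was at 358 and 497 normalized counts in GFP replicates 1 and 2 and at 329 and 150 in THOC5 replicates 1 and 2, and limma gave an adjusted p of 0.831 for the difference between the kinds of cell, against 0.02 by DESeq2 on the recovered reads. Over all genes, the test of that difference called 0 by limma (1245 at an unadjusted p under 0.05), 0 by edgeR and 2 by DESeq2, the other being the ribosomal RNA gene.

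**Figure D4:**
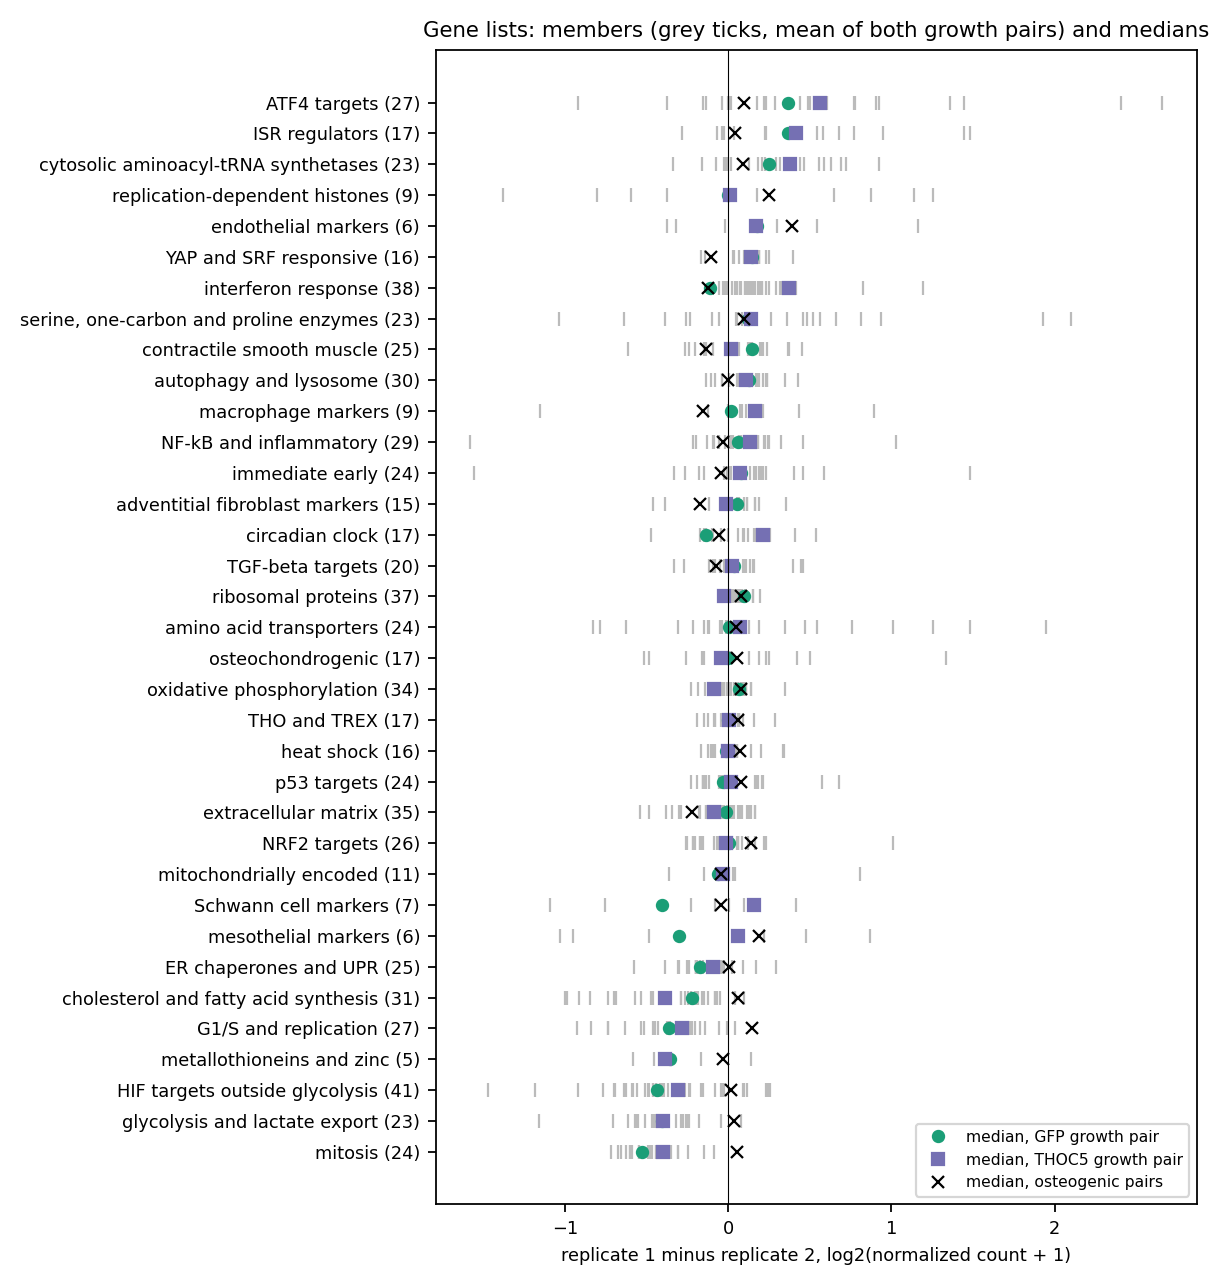
Replicate 1 minus replicate 2, as a difference of log2(normalized count + 1), for each gene list with at least 5 tested members (number in parentheses). Grey ticks are members, averaged over the 2 growth pairs. Circles and squares are the list medians of the GFP and THOC5 growth pairs, and crosses those of the osteogenic pairs. ATF4 targets, at 0.37 and 0.56, stand at the top, and mitosis genes, at -0.53 and -0.40, at the bottom.

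Markers of other cell types were summed in each library. The macrophage list, 9 tested of which 4 had a mean under 4 normalized counts, summed to 1189 and 1244 in replicate 1 of GFP and THOC5 cells and 954 and 1059 in replicate 2, with Cd14 at 459 to 776, and Ptprc, the pan-leukocyte marker, was at 0 to 1.17. The endothelial list summed to 95.7 to 139.8 with 2 of 6 members under 4, and the fibroblast list to 43052 and 47981 in replicate 1 and 38707 and 47296 in replicate 2, and the adipocyte list of 3 to 215 to 240.4. Of these 4 lists limma, edgeR and DESeq2 called 0 genes, and 1, 1, 0 and 0 had an unadjusted p under 0.05. The mesothelial list of 6 summed to 380 and 282 in replicate 1 and 685 and 509 in replicate 2, with Krt19 at 311 and 209 in replicate 1 and 586 and 416 in replicate 2 (1.93-fold, log2 -0.95 ± 0.14, adjusted p = 0.0203). Wt1 was at 25.6 and 25.1 in replicate 1 and 53.2 and 52.5 in replicate 2 (log2 -1.03, limma adjusted p = 0.214), and edgeR called it too, higher in replicate 2, while Msln was at 8.16 to 19.9 and Krt18 at 0 to 2.33. The mesothelial sums are mostly Krt19. As a list the 6 did not share a direction. In both kinds of cell 2 were higher in replicate 1 and 2 lower, with medians of -0.30 in GFP and 0.06 in THOC5 cells. The Schwann cell list of 7 summed to 1176 and 1187 in replicate 1 and 1514 and 1323 in replicate 2, with Ncam1 called (log2 -0.75) and the myelin gene Mbp at 743 to 853. Only 2 of the 7 were lower in replicate 1 in both kinds of cell and 0 higher. The list medians were -0.40 in GFP and 0.16 in THOC5 cells. The part of these cell types in the replicate difference was not tested.

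Between the osteogenic replicates limma called 0 of 22575 genes (651 at an unadjusted p under 0.05), and edgeR and DESeq2 on the recovered reads also called 0. The osteogenic pairs entered the spread of the fit that called the 82 genes, so a small osteogenic difference was part of how they were chosen, and their medians are given as a description. Over the 30 genes higher in growth replicate 1 the median difference between osteogenic replicates was 0.26 in GFP and 0.05 in THOC5 cells, against 0.72 and 0.90 in growth medium. Over the 52 higher in growth replicate 2 it was -0.04 and 0.14, against -0.73 and -0.74. The difference between the 2 media was itself tested, and 12 genes (0.0532%) passed. That test uses the same growth contrast as the 82, which hold 11 of the 12, so the overlap is no separate support. Chac1 was the highest, with a growth difference of 2.41 and an osteogenic one of -0.19, and Gbe1 the lowest, with -1.47 and 0.33.

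The levels of these genes in the osteogenic libraries were then set beside each growth replicate. Chac1 was at 662 and 499 normalized counts in GFP osteogenic libraries and at 62.7 and 109 in THOC5 osteogenic libraries. Those of GFP cells were above both growth libraries of the same cells, and those of THOC5 cells near growth replicate 2. Atf4 was at 4715 and 4072 in GFP and at 1558 and 1965 in THOC5 osteogenic libraries. For the 30 genes higher in growth replicate 1, the GFP osteogenic mean was nearer to GFP growth replicate 1 in 30 and above both growth libraries in 28. The THOC5 osteogenic mean was nearer to THOC5 growth replicate 2 in all 30. Of the 3454 genes with a mean of at least 50 that were higher in replicate 1 in both kinds of cell at any size, 58.4% had the GFP osteogenic mean nearer to replicate 1, and 36.1% the THOC5 osteogenic mean. Unlike the 30, these include small differences, so the shares are not a like reference, and genes are not independent.

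For the 52 genes higher in growth replicate 2, the GFP osteogenic mean was nearer to GFP growth replicate 1 in 43 and the THOC5 osteogenic mean nearer to THOC5 growth replicate 1 in 1. Nos2 was at 182 and 276 normalized counts in GFP osteogenic libraries and at 1370.3 and 1095 in THOC5 osteogenic libraries. In GFP cells both osteogenic libraries were below both growth libraries, and in THOC5 cells they lay close to growth replicate 2. Among the 2937 genes with a mean of at least 50 that were higher in replicate 2 in both kinds of cell at any size, the GFP osteogenic mean was nearer to replicate 1 in 57.1% and the THOC5 osteogenic mean in 37.9%. Small differences are included here too. For Slc7a5, the THOC5 osteogenic mean was lower than THOC5 growth replicate 1 by a log2 difference of -1.91 and higher than growth replicate 2 by 0.43.

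The comparison of THOC5 with GFP cells in growth medium, which the series design is about, called 1 gene of 22575 (0.00443%, 1152 at an unadjusted p under 0.05), and this was Thoc5 itself (log2 1.90 ± 0.15, limma adjusted p = 0.00187). It was 0 without either GFP growth library, and 0 without any 1 osteogenic library. Replicate 1 differed from replicate 2 in Thoc5 by a log2 difference of 0.62 in THOC5 cells and -0.04 in GFP cells. The test of the replicate contrast gave 0.29 ± 0.13 (limma adjusted p = 0.469), and that of the difference between the kinds of cell an adjusted p of 0.831.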

How the data were processed

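PolyA RNA was sequenced from 8 libraries of mouse vascular smooth muscle cells, made with the TruSeq RNA kit V2, which does not mark strand, per the labels' protocols. The submitters' processing notes name FastQC, Bowtie2, MACS2, SAMtools and mm10, with no version or role, and the counting step and annotation are not stated. The deposited signal values are each library's reads per gene divided by 1 factor per library: every value was a whole multiple of 1 step per library (100% within 1e-06), and the reads so recovered gave 7058681 to 10581042 reads and 21217 to 22482 detected genes per library. The deposited table also holds the authors' log2 fold changes, their standard errors and test statistics (score columns) and their p-values for comparisons between groups, per the file headers. None of these was used here, and the immunoprecipitation libraries of the series were not analysed here.

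The main test was limma 3.58.1 (R 4.3.3) with trend on log2(deposited value + 1), over genes with a value of at least 1 in at least 2 libraries, fitted to 8 libraries with 4 group means and 1 term for the growth replicate number (3 residual degrees of freedom). Adjusted p-values are Benjamini-Hochberg over all genes tested, with a threshold of 0.05. edgeR 4.0.16 (quasi-likelihood) and DESeq2 1.42.0 were run on the recovered reads. The test was checked on simulated data, with a spread taken from these libraries. The changed genes were drawn only from those with a mean of at least 50 over the growth libraries. Of these the test recovered 48% of 50 genes changed 1.5-fold and 96% of 50 changed 2-fold, so differences near 1.5-fold can be missed. Recovery at lower means was not measured. The difference between media was added after the data were seen. The libraries compared, the 36 gene lists and the core of named genes were chosen with earlier results of these data known. The named genes are that core, the 12 highest and the 12 lowest called genes that did not overlap between replicate numbers and had a mean of at least 50, and up to 4 genes per list with the smallest p. The same rule would have named 5 called genes in each direction of the other contrasts. Other genes named were chosen after their values were seen. Alternatives covered the pseudocount, the filter, the scaling, the tool, the libraries in the fit and a replicate block. Values of a few list members and 1 promoter match are not reported here.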

Additional observations from a re-analysis of the deposited data

Results flagged for a closer look

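For 12 genes the replicate difference in growth medium differed from that in osteogenic medium by a limma test of the difference itself, which was chosen after seeing the data. Each value is the growth difference (replicate 1 minus replicate 2) minus the osteogenic one, on the log2 scale, with its SE and adjusted p.

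On the replicate 1 side these were amino acid stress genes and 1 other. Chac1 differed by 2.60 ± 0.32 (adjusted p = 0.0218) and Mthfd2 by 1.83 ± 0.18 (adjusted p = 0.0102). The carriers Slc7a5 and Slc7a1 differed by 1.73 ± 0.21 and 1.11 ± 0.13 (adjusted p = 0.0218 for both). Lmcd1, a LIM domain protein gene of muscle, differed by 0.98 ± 0.12 (adjusted p = 0.0218). Its growth difference of 0.48 did not pass (adjusted p = 0.403), and its osteogenic difference was -0.50. Lmcd1 stood at 1635 and 1091 normalized counts in GFP and 1885 and 1454 in THOC5 growth replicates 1 and 2, and at 406 and 599 in GFP and 1152 and 1570.4 in THOC5 osteogenic replicates 1 and 2.

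On the replicate 2 side, Gbe1 differed by -1.80 ± 0.16 (adjusted p = 0.00626), Krt19 by -1.29 ± 0.14 (adjusted p = 0.0136) and Mcm5 by -1.11 ± 0.14 (adjusted p = 0.0218). Ndrg1 differed by -0.98 ± 0.14 (adjusted p = 0.0471), Uhrf1 by -0.94 ± 0.13 (adjusted p = 0.0399), Scd2 by -0.93 ± 0.13 (adjusted p = 0.0471) and Triobp by -0.78 ± 0.11 (adjusted p = 0.0453).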

How the results depend on the processing

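The 82 genes called between growth replicates kept their direction under all 19 other settings. Many of these settings leave the growth difference unchanged, and those without a growth library read it in 1 kind of cell. Both kinds of cell had the same direction for all 82, so a turn was hardly possible and the kept direction is no support. The number of calls did not hold. It was 60 and 93 with pseudocounts of 0.5 and 5, 63 with scaling to library totals, 122 by DESeq2, 207 by edgeR and 201 for genes with a mean of at least 10. It was 0 with every gene above 0 tested, 0 with the 4 growth libraries only and 0 with the spread from the osteogenic pairs only. With 1 library left out it ran from 0 to 69. Since the labels do not say what a replicate number shares, pairing rests on the number alone: with a replicate block shared by all 8 libraries the count was 0, and 65 of the 82 had an unadjusted p under 0.05. A growth replicate block left the THOC5 against GFP comparison at 1 gene. That count was 0 with every gene above 0 tested, and 0 to 1 with 1 library left out. The difference between the kinds of cell had 2 calls by DESeq2 and 0 otherwise, and it could not be fitted without a growth library. Adding an osteogenic replicate term, after the data were seen, gave 103 calls, of which 80 were shared. Under the shared block the signs of uncalled genes turned for Vegfa (0.015), Acta2 (-0.028) and Myh11 (-0.082). With 1 library left out Thoc5 ran from -0.039 to 0.62, Car9 from -0.26 to 0.45 and Myh11 from -0.26 to 0.36. The cause of these shifts was not tested. Genes under about 4 normalized counts lie at the limit of these depths.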
